A study of Mus musculus with 16 samples.

Results

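The 44 genes described here encode the machinery with which a cell imports, trims, glycosylates, folds and checks proteins in the endoplasmic reticulum (ER). They were listed by name for their part in the pathway, with no measured value in the rule, and all 44 were found among the 11713 genes counted. They were sorted into 5 roles: targeting and translocation (10 genes), the signal peptidase (4), oligosaccharyl transfer (5), chaperones and folding enzymes (17), and quality control and degradation (8).

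The RNA came from spleens of 9-month-old female BALB/cJ mice, with no treatment or genetic change named in the labels, and was read together with 30 DNA-tagged surface antibodies by CITE-seq, a droplet method that counts RNA molecules as UMIs (unique molecular identifiers). Cells were obtained by pressing the spleen through a strainer and lysing red blood cells. The series title places the study in the matching of tissue image antigens to single-cell transcriptomes. There were 2 libraries, Main1 with 3179 droplets and 7964712 UMIs and Main2 with 3918 droplets and 10174799 UMIs. The median droplet held 1789 and 1778 UMIs, and 14 droplet barcodes occurred in both. The series text names 2 spleens, but the labels do not say which library came from which animal, so n = 2 counts libraries and p-values cover only the spread between them. That spread, and the standard errors (SE), come from a single fit in which all cell classes share an estimate per gene. For some genes the 2 plasma libraries lay further apart than the SE.

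Droplets were sorted into 13 classes. Plasma droplets were those with at least 10 UMIs of Jchain, the joining chain of secreted IgM and IgA, and at least 3 UMIs of Mzb1, an ER protein of antibody-making cells. The other classes were gated on antibodies. Plasma cells were 33 droplets in Main1 and 49 in Main2, marginal zone B cells 149 and 323, B-1-like cells 76 and 42, and follicular B cells 869 and 944. Plasmacytoid dendritic cells were 40 and 42 droplets and conventional dendritic cells 49 and 62. Mzb1 helped to choose the plasma droplets, so its level there is a description and 43 members remain to be tested. Immunoglobulin transcripts took 46.0% of plasma UMIs in Main1 and 49.0% in Main2, against 2.06% and 2.26% in follicular cells. Levels are therefore given as CPM, here the UMIs of a gene scaled to 1000000 UMIs outside immunoglobulin genes, wherever no other scale is named. Plasma droplets were also deeper, with a median of 8138.5 UMIs against 1556 in follicular droplets.

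The labelled classes were checked against their markers. The plasma droplets carried Xbp1, Prdm1 and Irf4, and their surface B220 was low, with median antibody counts of 28 and 29 against 621 and 598 on follicular droplets. Of the 82 plasma droplets, 9 were positive for both CD3 and a B-lineage antigen and 9 had at least 2 UMIs of T-cell receptor complex genes. The 6 T-cell genes summed to 80.2 CPM of all UMIs in plasma droplets of Main1 and 555 in Main2, against 147 and 134 in follicular droplets. The plasmacytoid gate (Ly6C positive, CD11b negative) was mixed. Only 38 of its 82 droplets (46.3%) had a UMI of Siglech, a defining surface receptor of these cells, and 34 (41.5%) had at least 2 UMIs of T-cell receptor complex genes. Of the same 82 droplets 22 had a UMI of Cd79a, a B-cell receptor gene, as did 25 of the 111 conventional dendritic droplets. These counts can overlap. In 3 droplets Jchain was at 10 or more UMIs. The 11 plasma cell markers, most of them immunoglobulin genes, summed to 7935 CPM of all UMIs in Main1 and 32582 in Main2, against 1806 and 2052 in conventional dendritic droplets. Without those 3 droplets the sums were 2813 and 3352. Results on the gate are given again without these 3 droplets, a choice made after the values were seen, and for 46 droplets gated on Siglech, of which 38 lay in the first gate. In the Siglech gate 0 droplets reached 10 UMIs of Jchain or 2 of the T-cell receptor complex genes. The 8 B-1 markers summed to 1053 CPM of all UMIs in B-1-like and 90.6 in follicular droplets. The 8 marginal zone markers summed to 3067 in marginal zone, 2612 in B-1-like and 754 in follicular droplets, so they did not set the first 2 classes far apart. In B-1-like droplets 6 erythroid genes summed to 230 CPM of all UMIs in Main1 and 17027 in Main2, against 4275 and 3413 in follicular droplets. The part of the erythroid and T-cell admixtures in the results on B-1-like and plasma droplets was not tested.

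Secreted and membrane proteins carry a signal peptide that is bound by the signal recognition particle and delivered to the Sec61 channel. In the ER lumen the peptide is cut off, sugar chains are attached, chaperones and disulfide isomerases fold the chain, and misfolded chains are sent back to the cytosol for degradation. When unfolded protein accumulates, 3 sensors (Ern1, Eif2ak3 and Atf6) raise folding and degradation genes, which is called the unfolded protein response. Plasma cells are known for a greatly enlarged ER and for their need of Xbp1, the transcription factor made active by Ern1.

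Promoters are shown first as background, because the unfolded protein response is known to act through short promoter motifs. The members were listed for their part in the pathway, so their motif counts are a description. Whether the motifs play a part in the plasma cell levels was not tested. RefSeq windows (GRCm38.p6, 250 bases before to 50 bases after a start site) were found for 34 of the 44 members. The ER stress response element (ERSE), searched on both strands as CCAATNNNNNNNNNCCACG, is known as a site of NF-Y together with Atf6 or Xbp1. It occurred in 9 of the 34 members (26.5%) and in 37 of all 27025 genes with a window (0.137%). Its shorter form ERSE-II, searched as ATTGGNCCACG, occurred in Herpud1 alone among the members and in 12 genes in all (0.0444%). The core of the unfolded protein response element, TGACGTGG, was in 0 of the 34 and in 193 genes (0.714%), and the Atf4 core TGATGCAA was in 1 of 34, again Herpud1, and in 1.03% of genes. The stretches below hold every ERSE and ERSE-II found, with up to 30 bases on either side, all upstream of the start site. They run 5′ to 3′ along the gene and capitals mark the fixed letters of the motif. On the opposite strand an ERSE reads as CGTGG followed 9 bases later by ATTGG.
Hspa5, chr2:34771995-34772073, plus strand: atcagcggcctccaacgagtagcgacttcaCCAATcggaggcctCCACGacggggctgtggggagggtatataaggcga
Hsp90b1, chr10:86705503-86705686, minus strand: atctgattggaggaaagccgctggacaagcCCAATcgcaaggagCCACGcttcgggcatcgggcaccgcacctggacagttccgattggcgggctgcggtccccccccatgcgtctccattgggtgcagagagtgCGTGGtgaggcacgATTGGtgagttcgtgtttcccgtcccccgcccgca
Creld2, chr15:88819490-88819568, plus strand: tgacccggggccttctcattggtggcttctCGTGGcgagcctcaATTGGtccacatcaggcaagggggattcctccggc
Dnajc3, chr14:118937797-118937875, plus strand: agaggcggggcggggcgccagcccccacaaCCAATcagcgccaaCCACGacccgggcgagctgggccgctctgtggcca
Pdia6, chr12:17266461-17266539, plus strand: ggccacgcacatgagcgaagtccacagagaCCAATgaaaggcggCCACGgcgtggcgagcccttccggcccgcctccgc
Calr, chr8:84847045-84847123, minus strand: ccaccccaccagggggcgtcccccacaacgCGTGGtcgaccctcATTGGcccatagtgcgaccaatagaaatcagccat
Canx, chr11:50325770-50325848, minus strand: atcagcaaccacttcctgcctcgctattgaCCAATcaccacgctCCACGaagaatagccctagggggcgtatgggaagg
Derl3, chr10:75893212-75893290, plus strand: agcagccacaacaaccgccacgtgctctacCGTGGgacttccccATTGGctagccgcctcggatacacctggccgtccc
Syvn1, chr19:6046502-6046575, plus strand: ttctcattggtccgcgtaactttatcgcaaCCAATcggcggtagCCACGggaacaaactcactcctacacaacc
Herpud1, chr8:94386347-94386417, plus strand: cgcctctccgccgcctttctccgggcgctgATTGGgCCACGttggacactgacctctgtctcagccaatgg
Of these genes, Hspa5 encodes BiP, the main ER chaperone of the Hsp70 type, and its match lay 65 to 47 bases before the start site. Hsp90b1, the ER form of Hsp90, held 2 matches, one on each strand. Syvn1 held its match closest to the start site, at 44 to 26 bases before it. None of the 69 other pathway genes with a window, described further on, held an ERSE. Windows were matched by gene symbol. Ero1b, which held an ERSE, was not matched to Ero1lb, the older symbol under which it was listed among those genes. In plasma against follicular droplets the median log2 fold change was 3.0 over the 9 members with an ERSE and 2.66 over the 25 members whose window held none, which is given as a description.

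In plasma droplets the summed level of the pathway stood far above every other class on the scale without immunoglobulin UMIs. The 43 members other than Mzb1 summed to 39129 CPM in Main1 and 27568 in Main2, against 5460 and 5294 in follicular B cells. Per droplet that was 152 and 135 UMIs against 9.87 and 8.82. The next highest class was the plasmacytoid dendritic gate with 8719 and 10475 (8713 and 10307 without its 3 droplets rich in Jchain), followed by monocytes with 8376 and 7907 and red pulp macrophages with 7769 and 7171. Neutrophils were lowest with 3480 and 3764. The values of marginal zone B cells (5264 and 5299) and B-1-like cells (5559 and 5149) overlapped those of follicular cells, so the 3 B-cell classes could not be ordered beyond the spread of the libraries. Over all UMIs, immunoglobulin included, the log2 ratio of the summed level was 1.64 for plasma against follicular droplets without Mzb1 and 1.70 with it, and in single libraries it was 1.48 to 2.06 with Mzb1. For plasma against plasmacytoid dendritic droplets it was 0.803 without Mzb1 and 0.978 with it. That ratio rested on the library, at 0.635 without Main1 and 1.48 without Main2 (both with Mzb1). With Mzb1 included, which is no part of the rule for these classes, the ratio was 0.0812 for marginal zone against follicular, 0.0735 for B-1-like against follicular and 0.650 for plasmacytoid against conventional dendritic droplets.

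**Figure D1:**
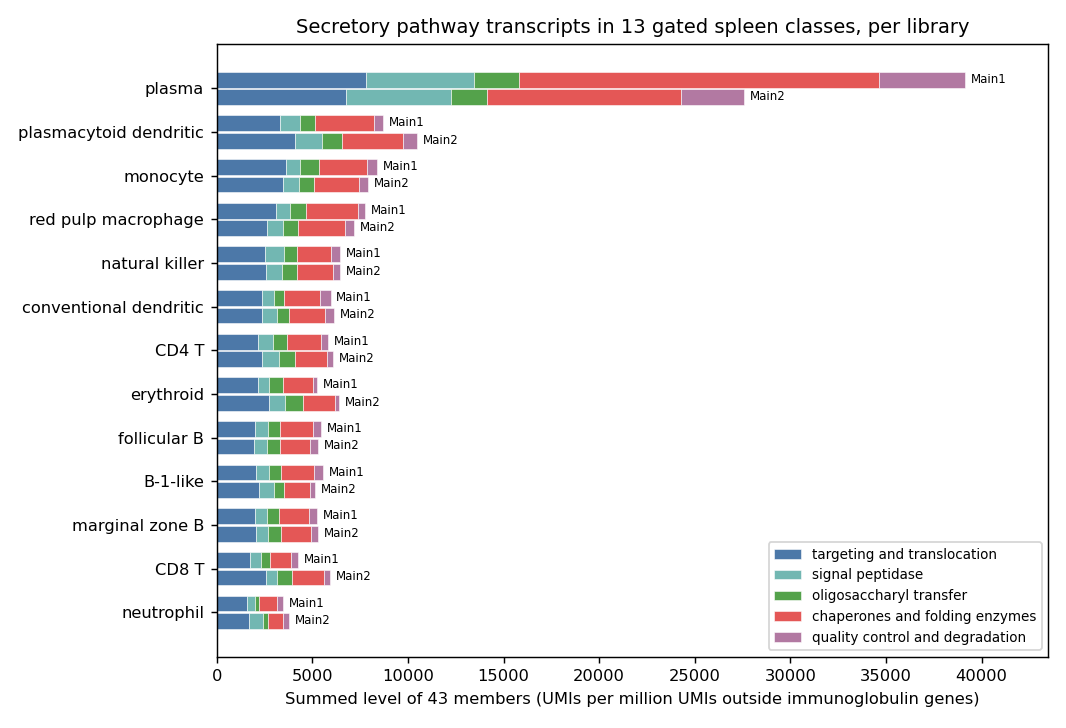
Summed level of 43 members (x axis, UMIs scaled to 1000000 outside immunoglobulin genes) in 13 classes, with 1 bar per library and colours for the 5 roles. The plasma bars reach 39129 and 27568, and every other bar ends at or below 10475.

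Of the 43 members, 40 had their highest class level in plasma droplets. For 35 of them both plasma libraries lay above every other class in every library. The members highest in another class were Ssr1, P4hb and Canx. Ssr1, a subunit of the translocon-associated protein complex, was at 198 CPM in the plasmacytoid gate and 160 in plasma droplets. The disulfide isomerase P4hb was at 128 in monocytes and 95.2 in plasma droplets. The lectin chaperone Canx was at 257 in erythroid and 193 in plasma droplets. Outside plasma cells the highest class was the plasmacytoid gate for 20 members, monocytes for 7, erythroid precursors for 5 and conventional dendritic cells for 3, and the lowest class was neutrophils for 23. The distance from plasma to the next class ranged widely. It was 15.1-fold for Fkbp11, 13.98-fold for Edem1, 10.0-fold for Creld2, 9.58-fold for Sel1l and 8.88-fold for Pdia4. For Derl3 the next class was natural killer cells with 2 UMIs, against 166 in plasma droplets, a ratio of 37.3 with a counting interval of 10.2 to 311. At the other end it was 1.10 for Ddost (counting interval 0.851 to 1.41) and 1.23 for Rpn2 (0.945 to 1.60). The intervals of Derl2 (0.757 to 2.04), Sec61a1 (0.990 to 2.84) and Hyou1 (0.696 to 4.22) also included 1. In the GRCm38 annotation Derl3 (ENSMUSG00000009092) is at chr10:75893413-75895941, Edem1 (ENSMUSG00000030104) at chr6:108828641-108859356, Creld2 (ENSMUSG00000023272) at chr15:88819646-88826683 and Pdia4 (ENSMUSG00000025823) at chr6:47796141-47813430. All but Pdia4 are on the plus strand.

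**Figure D2:**
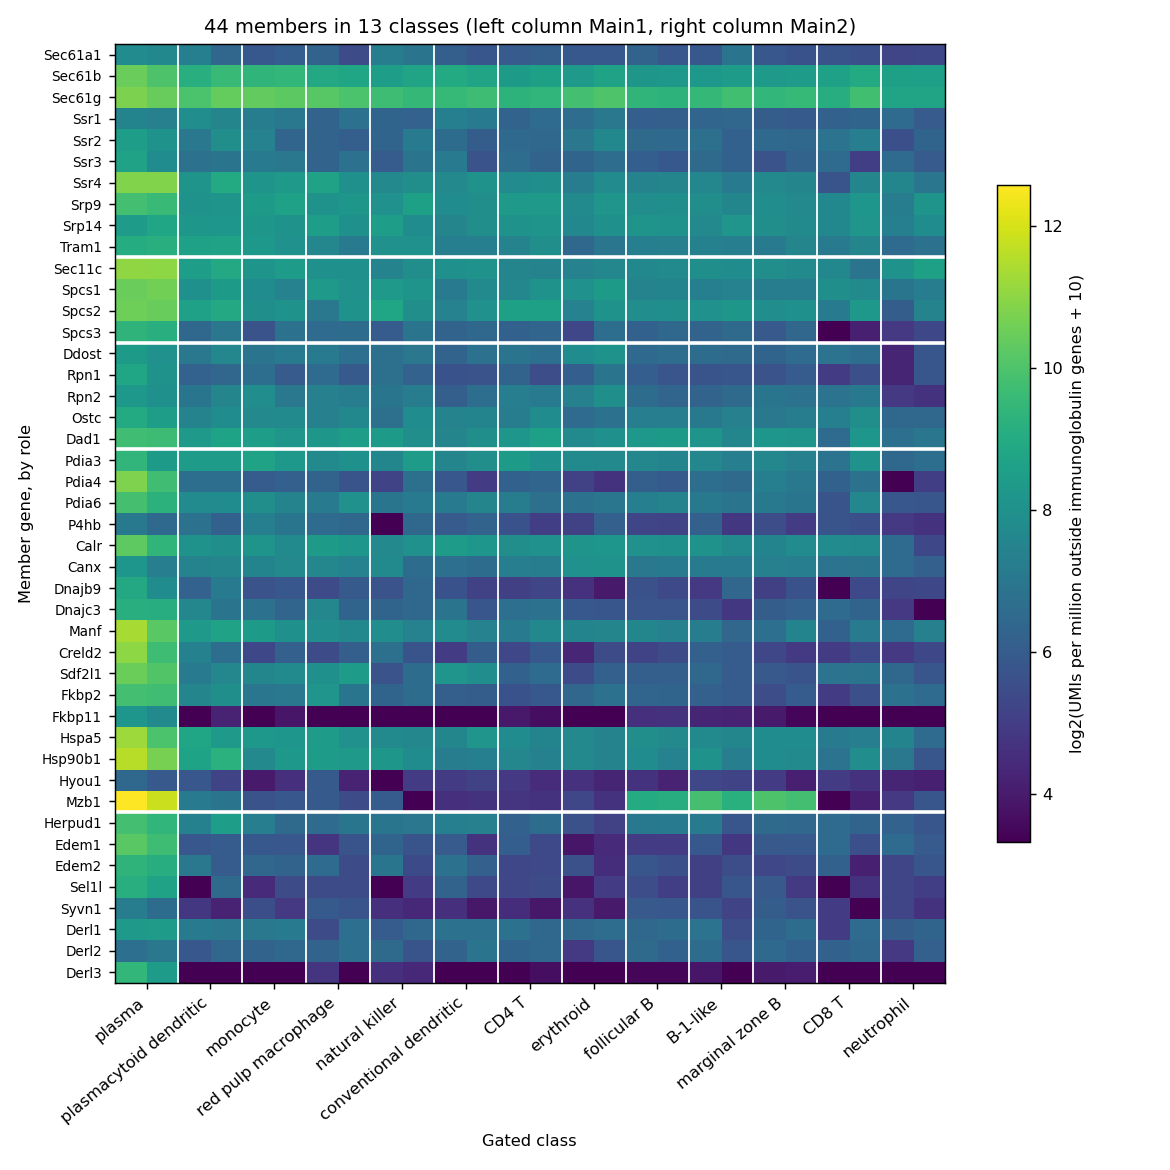
Level of each of the 44 members (rows, by role, separated by white lines) in each class and library (columns), as log2 of CPM outside immunoglobulin genes plus 10. The plasma columns are brightest in most rows. Mzb1 is also bright in the 3 B-cell classes, with 511 and 531 CPM in follicular cells.

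Against follicular B cells, the resting recirculating B cells of the spleen, 42 of the 43 members rose in plasma cells and 0 fell (edgeR quasi-likelihood test, Benjamini-Hochberg adjusted p under 0.05). Over all 8695 genes tested, 8.98% were called higher and 6.38% lower. The median log2 fold change was 2.54 over the members and -0.10 over all genes. Each library alone gave a positive ratio for 43 of 43. Derl3 was among the 42 called, and it entered the test only through its plasma UMIs, as given below. With library totals in place of TMM factors the median of all genes shifted to -1.09 and the share of calls that were higher went from 58.5% to 9.61%. On that scale 36 members were still called higher, while Canx and Srp14 turned to -0.23 and -0.35. Thinning to 1500 UMIs left out droplets below that depth and kept 82 of 82 plasma but 1039 of 1813 follicular droplets. After it, 31 were called.

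All 10 targeting and translocation genes rose, with a median log2 fold change of 1.93. Ssr4, a subunit of the complex that assists Sec61, was at 1828 and 1815 CPM in the plasma libraries and at 164 and 174 in the follicular ones. Its log2 fold change was 3.53 ± 0.21 (SE), and the groups lay about an order of magnitude apart. Ssr3 of the same complex was at 398 and 217 against 58.6 and 48.3, and Sec61b, a small subunit of the channel itself, at 1398 and 1010 against 290 and 296. Their log2 fold changes were 2.54 ± 0.24 and 2.12 ± 0.19. Both plasma libraries lay above both follicular ones, but those of Ssr3 differed from each other by 1.84-fold. The smallest change of the role was that of Srp14, a protein of the signal recognition particle, at 336 and 430 against 266 and 260 (log2 fold change 0.68 ± 0.21, adjusted p = 0.0172 in edgeR). The remaining 6 genes of the role ranged between 1.38 for Sec61g and 1.96 for Ssr2.

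The signal peptidase, which cuts the signal peptide from the entering chain, rose in all 4 of its subunits measured here, with a median of 3.202. Sec11c, a catalytic subunit, was at 2085 and 2023 CPM in plasma against 192 and 198 in follicular droplets, a log2 fold change of 3.50 ± 0.19. Spcs1 was at 1406 and 1552 against 165 and 169 (3.25 ± 0.19), and Spcs3 at 640 and 542 against 63.0 and 75.01 (3.15 ± 0.18). Spcs2 had the smallest change of the role at 2.73.

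The 5 genes of oligosaccharyl transfer, the step that attaches the N-linked sugar, all rose with a median of 1.79. Rpn1, a ribophorin subunit of the enzyme, was at 430 and 263 CPM against 57.9 and 44.5 (log2 fold change 2.80 ± 0.23). Rpn2 was at 297 and 242 against 87.9 and 71.2 (1.84 ± 0.22), and Ddost at 320 and 246 against 80.2 and 89.0 (1.79 ± 0.21). Ostc and Dad1 rose by 1.55 and 1.51.

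All 16 tested chaperones and folding enzymes rose, with a median of 3.39. Creld2, an ER-resident protein induced by unfolded protein, was at 2023 and 834 CPM in plasma and at 27.4 and 33.1 in follicular droplets. Its log2 fold change was 5.54 ± 0.21, but a large part of its Main1 plasma UMIs came from a single droplet, as given below. The disulfide isomerase Pdia4 was at 1757 and 843 against 59.2 and 51.5 (4.57 ± 0.17). Sdf2l1, a partner of BiP, was at 1429 and 1051 against 59.9 and 59.8 (4.45 ± 0.21). In each of these 3 genes Main1 was the higher plasma library and the lower one was still far above both follicular values. Fkbp11, a prolyl isomerase, rested on 85 plasma UMIs and was at 281 and 204 against 14.6 and 15.9 (4.03 ± 0.33). Hspa5 (BiP) was at 2398 and 985 against 231 and 196 (3.0 ± 0.21), and Hsp90b1 at 3093 and 1627 against 218 and 161 (3.70 ± 0.22). At the lower end stood Pdia3 (1.51) and Canx, at 281 and 146 against 121 and 130, with 0.76 ± 0.22 and an adjusted p of 0.00964 in edgeR. Mzb1, by which the droplets were chosen, was at 6115 and 3667 against 511 and 531.

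Of the 8 quality control and degradation genes 7 rose, with a median of 3.30 over the 8. Derl3 is a derlin, one of the membrane proteins through which misfolded chains leave the ER. It was at 687 and 325 CPM in plasma and at 1.27 and 1.27 in follicular droplets, that is 166 against 4 UMIs. Its log2 fold change was 8.30 ± 0.39. Derl3 reached the UMI minimum for testing only through its plasma UMIs. Its call and fold change are therefore not independent of its high level there. A UMI of Derl3 was found in 71.95% of plasma droplets (95% Clopper-Pearson interval 60.9 to 81.3), in 0.221% of follicular (0.0602 to 0.564) and in 0.311% of CD4 T droplets (0.00786 to 1.72). Median UMIs per droplet in those classes were 8138.5, 1556 and 1982.5. At 1500 UMIs per droplet the shares were 20.7% of 82, 0.192% of 1039 and 0.379% of 264 droplets kept. The 1500 UMIs included immunoglobulin, which took a far larger part in plasma droplets, so depth outside it was not made equal. The intervals cover counting error only.

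Edem1, a lectin that passes misfolded glycoproteins to degradation, was at 1172 and 822 against 21.0 and 21.6 (5.61 ± 0.19). Sel1l, the adaptor of the ubiquitin ligase Syvn1, was at 547 and 392 against 35.02 and 22.9 (4.08 ± 0.25). Syvn1 itself changed by less, at 141 and 87.6 against 49.7 and 47.0 (1.29 ± 0.32). Derl2, a relative of Derl3, was at 93.7 and 121 against 81.5 and 64.2. Its log2 fold change was 0.72 ± 0.30 and it did not pass the test (adjusted p = 0.0942 in edgeR). The 3 derlins thus stood at 8.30, 2.10 (Derl1) and 0.72.

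**Figure D3:**
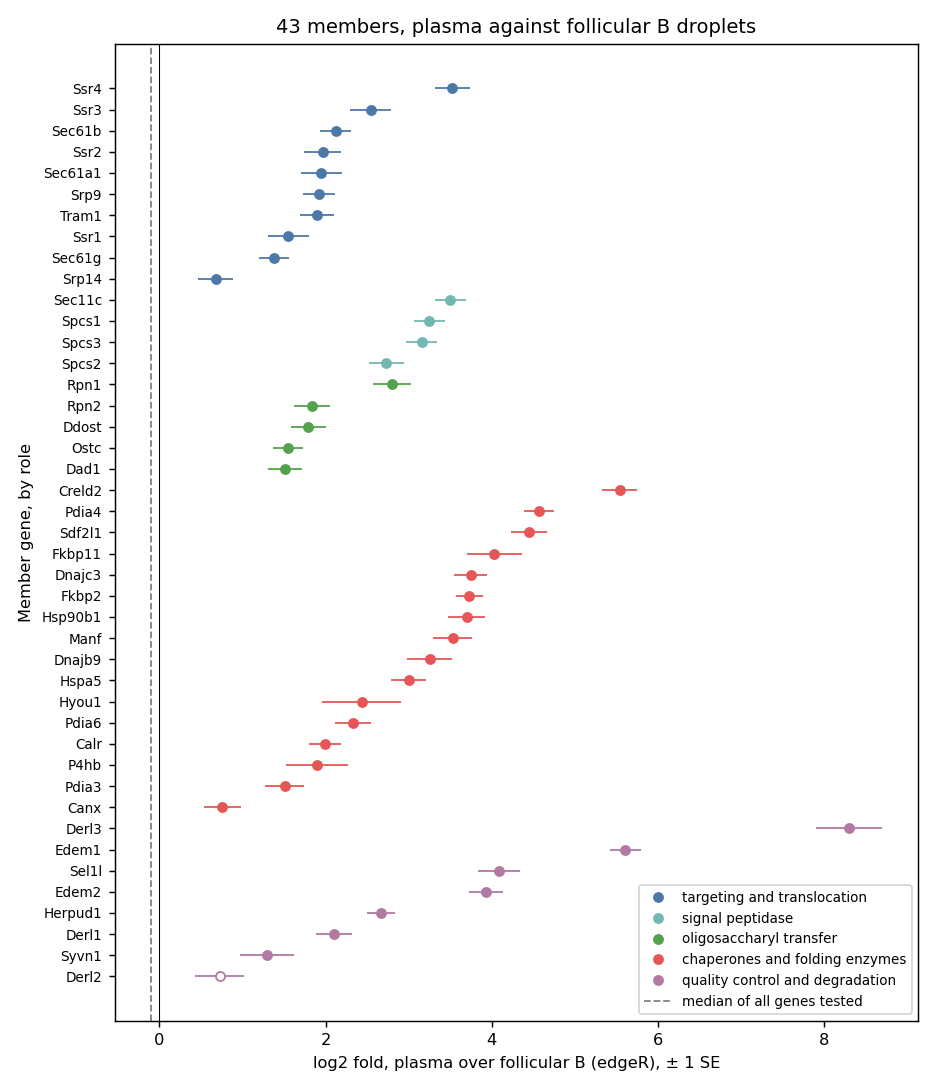
Log2 fold change of plasma over follicular B droplets for 43 members (edgeR, bars ± 1 SE), coloured by role; the open circle did not pass an adjusted p under 0.05 and the dashed line is the median of all genes tested. Derl3 lies furthest right at 8.30 and Srp14 lowest at 0.68.

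The other genes of the pathway were counted from a list of 82, of which 78 were measured and 74 tested. In plasma cells 47 of the 74 rose and 0 fell, with a median log2 fold change of 1.45. Among the sensors and factors of the unfolded protein response 3 of 9 rose. Xbp1 was at 2523 and 2149 CPM against 70.0 and 72.5, a log2 fold change of 5.12 ± 0.21. Atf4, a factor of the Eif2ak3 arm, was at 219 and 121 against 87.9 and 84.5 (0.97 ± 0.26, adjusted p = 0.00554 in edgeR), and with library totals in place of TMM factors it turned to -0.03. Ddit3 (CHOP), a target of Atf4, was at 31.2 and 33.4 against 25.5 and 23.5 and did not pass (0.57 ± 0.50, adjusted p = 0.544 in edgeR). The plasma cell factors Prdm1 (5.38 ± 0.58) and Irf4 (2.73 ± 0.39) both rose. So did 9 of 11 redox genes, led by Selenom (6.69 ± 0.57), Prdx4 (4.43 ± 0.25) and Txndc5 (4.24 ± 0.21), and 17 of 24 genes of export from the ER. Of other import and glycosylation genes 11 of 18 rose, and of other degradation genes 5 of 10.

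Plasma droplets of the 2 libraries differed in how much of the pathway they carried. The chaperones and folding enzymes without Mzb1 summed to 18830 CPM in Main1 and 10163 in Main2, a ratio of 1.85. The signal peptidase summed to 5623 and 5486 (1.02), translocation genes to 7818 and 6746 (1.16), oligosaccharyl transfer to 2390 and 1890 (1.26), and quality control to 4467 and 3283 (1.36). Over follicular cells of the same library the chaperones were 11.1-fold higher in Main1 and 6.501-fold in Main2, whereas the signal peptidase was 8.73-fold and 8.10-fold higher. With the droplet richest in the members removed from each library, the chaperone ratio between libraries was 1.78. The median droplet gave another order of the roles. Its share of UMIs outside immunoglobulin genes was 1.55% for chaperones in Main1 and 1.14% in Main2, a ratio of 1.36, while the ratio was 1.49 for oligosaccharyl transfer, 1.45 for quality control, 0.978 for the signal peptidase and 0.945 for translocation genes. With 1 library of each kind this has no replicate and no test.

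For single genes the 95% counting interval of the Main1 to Main2 ratio lay above 1 for 21 of 44 members in plasma droplets and below 1 for 0, against 3 and 0 in follicular droplets. These intervals cover counting error only and take UMIs as independent, although many come from the same droplet, so they leave out the spread between droplets and between libraries and are given as a description. Hspa5 had the largest ratio at 2.44 (interval 2.05 to 2.90). Creld2 followed at 2.42, with 31.7% of its Main1 UMIs in a single droplet, then Manf at 2.25, Dnajb9 at 2.16, Derl3 at 2.112, and Pdia3 and Pdia4 at 2.09 each. Mzb1 had 1.67 (1.51 to 1.84). Sec11c (1.03), Ssr4 (1.007) and Spcs1 (0.91) were near 1, and so were Dnajc3 and Fkbp2 (1.06 each) among the folding genes. On log2 of level plus 10, the ratio to follicular cells was 5.77 in Main1 and 4.29 in Main2 for Creld2, 3.32 and 2.27 for Hspa5, and 3.38 and 3.29 for Sec11c.

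**Figure D4:**
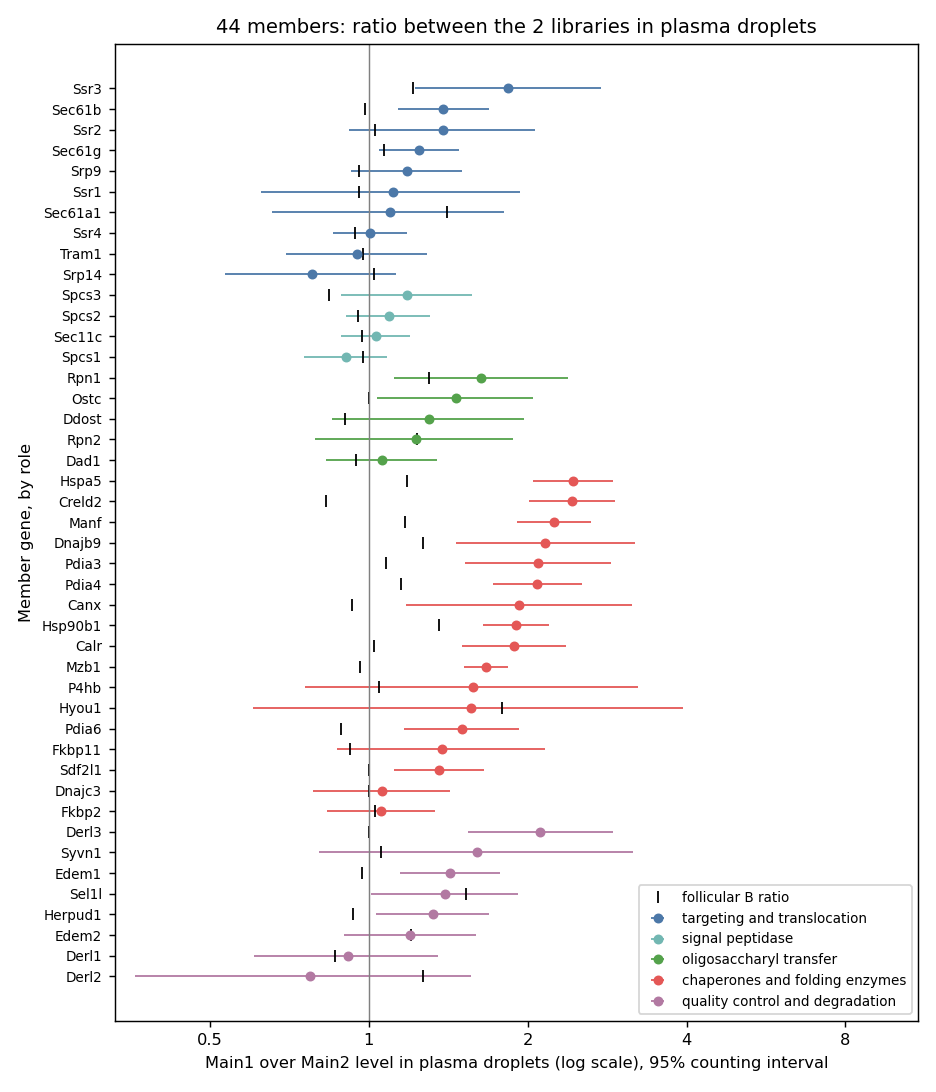
Ratio of the Main1 to the Main2 level in plasma droplets for the 44 members (log axis, bars are 95% counting intervals), with a black tick for the same ratio in follicular B droplets. Chaperones such as Hspa5 (2.44) and Manf (2.25) lie to the right of 1, and signal peptidase genes lie around 1.

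Within the plasma class the droplets varied widely. The 43 members took a median of 4.11% of UMIs outside immunoglobulin genes in Main1 (range 0.565 to 10.7) and 2.98% in Main2 (0.569 to 7.41). The chaperones ranged from 0.0606 to 7.31% in Main1 and from 0.132 to 4.52% in Main2. Spearman correlations over droplets are given as descriptions, since roles of a droplet share its total. Chaperones went with quality control genes at 0.75 in Main1 (33 droplets) and 0.66 in Main2 (49 droplets), and with oligosaccharyl transfer at 0.80 and 0.68. Chaperones and signal peptidase gave 0.21 and 0.67, so the libraries differed. The summed share went with the immunoglobulin share of the droplet at 0.42 and 0.56.

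In 6 plasma droplets immunoglobulin genes were under 10% of UMIs, and there the members took only 0.565 to 1.09%. The other 76 had a median of 3.55%. Without these 6 droplets 42 members were still called against follicular cells. By the main heavy chain 70 droplets were Ighm, 10 Igha and 2 Ighg, with median member shares of 3.42, 3.53 and 3.30%. The 18 droplets just inside the Mzb1 minimum, with 3 to 5 UMIs, had a median share of 2.74%. Just outside the rule, 6 droplets with Jchain at 10 or more and Mzb1 at 1 to 2 UMIs had 2.45%, 6 with no Mzb1 UMI had 1.08%, and 6 with Jchain at 5 to 9 had 0.584%.

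Marginal zone B cells, which answer blood-borne antigen quickly, differed from follicular cells in 3 of 44 members, 3 higher and 0 lower. With only these 2 classes in the fit 8 were called, 6 higher and 2 lower (Fkbp11 and Herpud1). Over all genes 2.39% were called higher and 1.96% lower. Pdia4 was at 151 and 122 CPM in marginal zone droplets and at 59.2 and 51.5 in follicular droplets (log2 fold change 1.45 ± 0.21, adjusted p = 1.53e-06 in edgeR). Edem1 was at 50.4 and 49.4 against 21.0 and 21.6 (1.41 ± 0.29, adjusted p = 0.000765 in edgeR). Mzb1 was at 1005 and 880 against 511 and 531 (0.99 ± 0.19, adjusted p = 0.000363 in edgeR). For each of the 3 genes both marginal zone libraries lay above both follicular ones. The share of higher calls over all genes went from 55.0% to 38.9% with library totals in place of TMM factors.

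The median over the members was 0.10, against -0.02 over all genes, and 9 members had an unadjusted p under 0.05. Least changed were Srp9 at 225 and 198 against 224 and 234, Ssr1 at 56.3 and 51.9 against 57.9 and 60.4, and Spcs3 at 50.4 and 72.8 against 63.0 and 75.01. Fkbp11 was lower in both libraries, at 5.93 and 1.23 against 14.6 and 15.9, but only 3 UMIs were counted in marginal zone droplets and it did not pass (adjusted p = 0.0645 in edgeR). Of the 74 other pathway genes 1 rose and 1 fell. Prdx4, an ER peroxiredoxin, was at 29.6 and 40.7 against 14.6 and 22.3 (1.08 ± 0.33, adjusted p = 0.0468 in edgeR). Txndc5, an ER disulfide isomerase, was at 68.2 and 45.7 against 124 and 130 (-1.12 ± 0.26, adjusted p = 0.00425 in edgeR). Xbp1 was at 59.3 and 50.6 against 70.0 and 72.5 (-0.27 ± 0.26) and did not pass.

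B-1-like cells, a self-renewing B-cell type with natural IgM, differed from follicular cells in 0 of 44 members by edgeR and in 0 by DESeq2. Over all genes 1.4% were called higher and 0.702% lower. The median log2 fold change was 0.03 over the members and -0.07 over all genes. One member had an unadjusted p under 0.05, namely Mzb1, with a log2 fold change of 0.51 (adjusted p = 0.297 in edgeR). With only these 2 classes in the fit, or with droplets thinned to 1500 UMIs, Mzb1 passed and was the 1 member called. Ssr4 at 187 and 136 against 164 and 174 and Ddost at 86.3 and 81.3 against 80.2 and 89.0 were among the least changed. None of the 74 other pathway genes passed; Prdm1 was at 14.4 and 27.1 against 2.55 and 1.91 (2.81 ± 0.96, adjusted p = 0.139 in edgeR). Irf4 was at 9.59 and 63.2 against 17.8 and 18.4, with the libraries on opposite sides of the follicular level.

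Plasmacytoid dendritic cells, which release large amounts of interferon and have a well developed ER, were set against conventional dendritic cells. In the antibody gate 4 of 44 members rose and 0 fell, where 2.4% of all genes were called higher and 3.62% lower. The median was 0.36 over the members and -0.04 over all genes, and 10 members had an unadjusted p under 0.05. With library totals in place of TMM factors the share of higher calls over all genes went from 39.9% to 59.6% and the median of all genes to 0.22. Mzb1 was at 130 and 110 CPM against 13.5 and 15.4 (log2 fold change 2.67 ± 0.60, adjusted p = 0.00144 in edgeR). Fkbp2, a prolyl isomerase, was at 176 and 237 against 60.5 and 56.4 (1.505 ± 0.38), Hsp90b1 at 399 and 594 against 141 and 149 (1.45 ± 0.32), and Tram1, which helps chains into the membrane at Sec61, at 381 and 393 against 148 and 149 (1.06 ± 0.29). In all 4 genes both libraries of the gate exceeded both of the conventional class. After droplets were thinned to 1500 UMIs only Fkbp2 and Hsp90b1 kept their calls, and Mzb1 (1.95) and Tram1 (1.14) did not pass. Without the 3 droplets rich in Jchain these 4 were again called higher, with log2 fold changes of 2.69 for Mzb1, 1.49 for Fkbp2, 1.44 for Hsp90b1 and 1.06 for Tram1, and 1 member was called lower, Sdf2l1 (-1.04 ± 0.33, adjusted p = 0.0456 in edgeR). With those droplets Sdf2l1 did not pass (-0.97 ± 0.33, adjusted p = 0.0657 in edgeR).

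With the 46 droplets gated on Siglech, these 4 genes had larger log2 fold changes of 3.94 for Mzb1, 2.00 for Fkbp2, 1.76 for Hsp90b1 and 1.36 for Tram1, and Sec61g also passed (0.64 ± 0.20, adjusted p = 0.0404 in edgeR). In the Siglech gate Mzb1 stood at 366 and 261 CPM. Among the least changed in the antibody gate were Srp9 at 260 and 265 against 215 and 226 and Derl1 at 130 and 119 against 101 and 103. Fkbp11 had 1 UMI in the gate and 0 in conventional dendritic cells, so no fold is given. Of the other pathway genes 4 of 74 rose and 1 fell. Xbp1 was at 260 and 320 against 40.4 and 41.0 (2.50 ± 0.39) and Txndc5 at 149 and 174 against 26.9 and 35.9 (2.00 ± 0.50). Ppp1r15a, a phosphatase subunit that restores translation after stress, was at 27.9 and 9.13 against 135 and 113 (-3.01 ± 0.62).

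**Figure D5:**
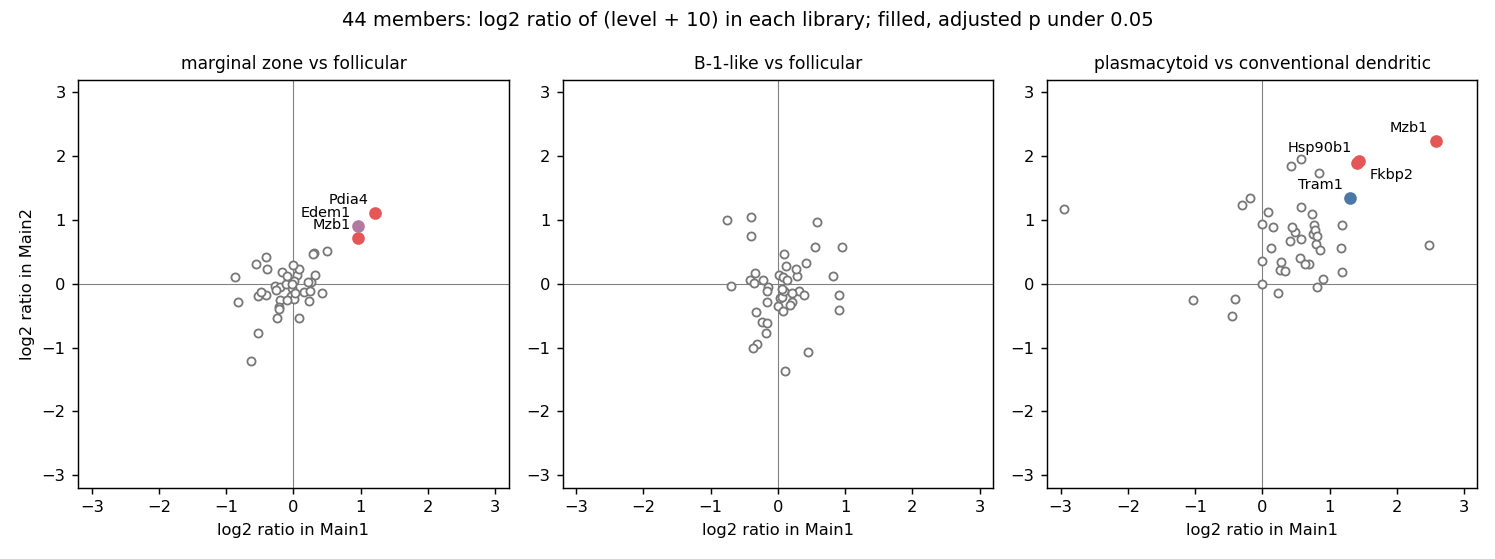
Log2 ratio of level plus 10 for the 44 members in Main1 (x axis) and Main2 (y axis) for 3 comparisons; filled points passed an adjusted p under 0.05 in edgeR. In the marginal zone panel only Pdia4, Edem1 and Mzb1 are filled, in the B-1-like panel none, and in the dendritic panel 33 of 44 members lie above 0 in both libraries.

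Plasma cells were also set against the plasmacytoid gate, the next highest class. The plasma sums are those used above, so the comparisons share them. Of 43 members 38 were higher in plasma cells and 0 lower, where 4.24% of all genes were called higher and 2.35% lower. The median was 2.12 over the members and 0.10 over all genes. Without the 3 droplets rich in Jchain the same 38 were called. Derl3 was among them, and here too it entered the test only through its plasma UMIs. With the Siglech gate 33 were called, without Sec61a1, Sec61g, Srp14, Ddost and Tram1. With library totals in place of TMM factors the share of higher calls over all genes went from 64.4% to 5.83%. On that scale 23 members were called higher and 1 lower, namely Ssr1 at 172 and 154 CPM in plasma against 223 and 174 in the gate. A further 9 members that passed with TMM factors turned negative there without passing, among them Sec61g (-0.47), Srp14 (-0.47), Tram1 (-0.47) and Pdia3 (-0.39).

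Derl3 had 0 UMIs in the 82 droplets of the plasmacytoid gate, which allows a share of droplets with a UMI of up to 3.66% by a limit of 3 counts (the Clopper-Pearson interval used above ends at 4.40%), and was at least 32.7-fold higher in plasma cells when 3 UMIs over both libraries are taken as the floor. Fkbp11 had 85 UMIs against 1, a ratio of levels of 50.2 with a counting interval of 8.77 to 2006. Edem1 was at 1172 and 822 against 46.4 and 54.8 (log2 fold change 4.65 ± 0.30), Pdia4 at 1757 and 843 against 92.9 and 91.3 (4.11 ± 0.28), and Creld2 at 2023 and 834 against 158 and 91.3 (3.80 ± 0.29). Sel1l was at 547 and 392 against 0 and 82.2. Of the import steps, Spcs3 (2.96 ± 0.29), Sec11c (2.73 ± 0.21), Ssr4 (2.65 ± 0.24) and Rpn1 (2.64 ± 0.37) were also higher.

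The members that did not pass were Ssr1 (0.10 ± 0.30), Canx (0.60 ± 0.30), P4hb (0.62 ± 0.48), Hyou1 (1.16 ± 0.62) and Derl2 (1.28 ± 0.48). Hyou1, a large ER chaperone, had only 22 UMIs in plasma cells and 8 in the gate. Of the 74 other pathway genes 33 were higher in plasma cells, among them Txndc5 at 2343 and 2140 against 149 and 174 (4.18 ± 0.27), Xbp1 (3.39 ± 0.23) and Atf4 at 219 and 121 against 92.9 and 54.8 (1.47 ± 0.42). Ddit3 did not pass (0.45 ± 0.71).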

How the data were processed

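The authors deposited 1 table of UMI counts per gene and droplet and 1 of antibody tag counts, both whole numbers that were not normalized. Per the submitters' processing notes, reads went through bcl2fastq and Cell Ranger (3.0.2, build mm10); how antibody tags were counted is not stated there. The prefixes m1 and m2 of the droplet names were taken to mean Main1 and Main2. The labels list 16 samples, 4 in each of 4 groups (RNA and antibody, 2 sources), which the tables do not separate, so each source was 1 library. Of 11713 gene identifiers 11682 matched a symbol. No droplet was removed.

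The members, roles, gates, lists, the rule for named genes and the tests were chosen with earlier results of these data known. Antibody counts were log-transformed and centred, and a Gaussian mixture of 2 components (scikit-learn 1.9.0, posterior above 0.5) gave positive droplets. Among CD3-negative B-lineage droplets, marginal zone cells had IgD under the median and CD21/35 in the top 25%, follicular cells had IgD at or above the median below that top, and B-1-like cells had low IgD, high IgM and the top 10% of CD5. Doublets were not removed.

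UMIs were summed per library and class (26 sums) and fitted together with edgeR 4.0.16 (R 4.3.3), with TMM factors, class and library as terms, 12 residual degrees of freedom, genes with 50 or more UMIs and Benjamini-Hochberg adjustment over all of them. Both classes of a comparison come from the same library, so the library term is a block that pairs them by construction. The share of UMIs in 75 immunoglobulin genes is why levels leave these out; library ratios add 10. Intervals are 95%. The tests were tried on simulated sums with changes set in randomly drawn genes. Apart from those genes the first class was given the profile of the second. The simulated plasma sums therefore lacked the immunoglobulin share of the real ones, and recovery under that share was not tested. The plasma against follicular test recovered 26% of 2-fold and 67% of 4-fold changes. The plasmacytoid against conventional dendritic test recovered 1% and 25%, so members without a call there may still differ. Named with values are, per role and comparison, the 3 largest called members changed the same way in both libraries, the 3 least changed uncalled ones, the 3 largest of the other lists, and Xbp1, Prdm1, Irf4, Atf4 and Ddit3; other members were named after their values were seen. Alternatives were no block, 2 classes only, other scalings, DESeq2 1.42.0, filters, no immunoglobulin genes, another antibody scale, thinning, no deepest droplets, other plasma and plasmacytoid rules (those on immunoglobulin share and on Jchain in the plasmacytoid gate chosen after seeing the data), and 1 library. Promoter windows are RefSeq's (GRCm38.p6).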

Additional observations from a re-analysis of the deposited data

How the results depend on the processing

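The called direction of the members held in most alternatives. Over 132 single-gene results, 1720 tested repeats kept direction and side of the threshold, 87 kept direction but lost the call, 3 gained it and 12 turned. Those 12 came from library totals in place of TMM factors, which move the median of all genes as given in the report. There, against follicular cells, Atf4 was -0.0296, Canx -0.2331 and Srp14 -0.3454. Against plasmacytoid dendritic cells Ddost was -0.0579, Pdia3 -0.3852, Rpn2 -0.0257, Sec61a1 -0.0416, Sec61b -0.0585, Sec61g -0.4738, Srp14 -0.4743, Ssr2 -0.1639 and Tram1 -0.4669, and 24 members were called in place of 38. With 1 library there are no residual degrees of freedom, hence no test: 205 such values kept direction and 1 turned, Pdia3 against plasmacytoid cells, from -0.0324 without Main1 to 1.025 without Main2.

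Thinning to 1500 UMIs left 25 members called for plasma against plasmacytoid cells, 2 in place of 4 for plasmacytoid against conventional dendritic cells (Fkbp2 and Hsp90b1) and 1 in place of 0 for B-1-like cells (Mzb1). A fit of only the 2 classes compared gave 8 in place of 3 for marginal zone cells (6 higher; Fkbp11 and Herpud1 lower) and 1 for B-1-like cells (Mzb1). Without the library as a replicate block, 42, 3, 0, 4 and 36 members were called in the 5 comparisons as ordered in the report, and the 2 lost against plasmacytoid cells were the only members that lost a call.

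The log2 ratio of the summed members rose to 2.612 for plasma against follicular and 1.892 against plasmacytoid cells with immunoglobulin genes left out of the total, and to 0.8123 for plasmacytoid against conventional dendritic cells with antibodies scaled within each droplet. For marginal zone cells it was -0.0159 without Mzb1, 0.0645 thinned and 0.0463 with that antibody scale, and with 1 library left out it ran from 0.0763 to 0.0946; for B-1-like cells the latter range was -0.0239 to 0.1127. The cause was not tested.

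Over all genes, calls higher and lower were 781 and 555 for plasma against follicular cells, but 394 and 3705 with library totals, 175 and 215 thinned, and 511 and 339 with 2 classes in the fit. For marginal zone cells 208 and 170 became 128 and 79 without the block, 447 and 356 with 2 classes and 102 and 112 thinned. For B-1-like cells 122 and 61 became 144 and 158 with no filter and 64 and 37 thinned. For dendritic cells 209 and 315 became 135 and 191 thinned. For plasma against plasmacytoid cells 369 and 204 became 135 and 2181 with library totals, 168 and 95 with 2 classes and 114 and 104 thinned. Depth limits single genes in the small classes: between the dendritic classes Mzb1 rested on 26 and 5 UMIs and Fkbp2 on 45 and 20.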
